A study of Mus musculus with 40 samples.

Results

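A set of 9 marker genes of hepatic stellate cells and myofibroblasts was followed in the liver after small bowel resection (SBR) and after treatment with WUSTL0717, with the duodenum and the ileum for contrast. The genes Acta2, Tagln, Des, Vim, Dcn, Lum, Rgs5, Thy1 and Reln were chosen by name, and all 9 were among the 15958 genes of the deposited table. Male wild-type C57BL/6 mice were 8 weeks old at surgery and underwent either sham surgery or, per the labels, removal of 50% to 60% of the small bowel. The study's methods state a larger resected share. Dosing began 3 weeks after surgery and lasted 7 weeks, so that tissues represent 10 weeks after surgery. Sham mice received vehicle, and resected mice received vehicle or WUSTL0717 at 30 mg/kg daily. WUSTL0717 is an orally given agonist of the liver X receptors (LXR) described as selective for the intestine. The 40 RNA libraries were 18 of liver (5 sham vehicle, 8 SBR vehicle and 5 SBR WUSTL0717) and 11 each of duodenum and ileum (3, 4 and 4). No sham mice received the compound, so its effect was measured only after resection, and the liver RNA came from tissue of 1 lobe and holds all its cell types.

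Hepatic stellate cells lie between the hepatocytes and the sinusoidal endothelium, where they store vitamin A and act as the pericytes of the liver. After injury they lose the vitamin A droplets, divide, contract and secrete collagen as myofibroblasts, and fibroblasts around the portal tracts can become myofibroblasts as well. Smooth muscle alpha-actin, which Acta2 encodes, is the usual mark of the contractile myofibroblast, but the smooth muscle of arteries and portal veins also makes it.

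The markers fall into 4 kinds by role. Acta2 and Tagln (transgelin, an actin-binding protein) belong to the contractile apparatus. Des (desmin) and Vim (vimentin) form intermediate filaments, desmin in rodent stellate cells and muscle and vimentin in mesenchymal cells at large. Dcn (decorin) and Lum (lumican) are small leucine-rich proteoglycans that bind collagen fibrils. Rgs5 (a regulator of G protein signalling found in pericytes), Thy1 (a surface glycoprotein of portal fibroblasts that T cells also carry) and Reln (reelin, a secreted glycoprotein made by stellate cells and lymphatic endothelium) are markers of cell identity.

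In the GRCm38 assembly (GENCODE M21 annotation) Lum at chr10:97565128-97572703 and Dcn at chr10:97479609-97518143 are neighbours on the plus strand, 46985 bases apart. Vim lies at chr2:13573927-13582826, Des at chr1:75360329-75368579, Rgs5 at chr1:169655501-169695813 and Thy1 at chr9:44043384-44048579, all on the plus strand. Acta2 at chr19:34241090-34255590, Tagln at chr9:45929619-45936058 and Reln at chr5:21884454-22344702 are on the minus strand. All 9 are protein-coding genes, and the values cover their exons. Antisense Gm48529 and the gene Pcsk7 share 67.9% of the exonic bases of Tagln on the opposite strand, against 5.86% for Des and 1.04% for Reln. The strand setting of the counting was not given in the sources used here. Per the study's methods only unambiguous reads were counted. If strand was ignored, reads in the shared stretches would be left out and Tagln would read low, so its values are uncertain.

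The 250 bases before the RefSeq start (GRCm38.p6) were searched for the 5 members with an entry (Acta2, Vim, Des, Rgs5 and Reln). RefSeq starts Acta2 and Vim further inside the gene than GENCODE, whose first base is 217 bases further upstream for Acta2 and 384 for Vim, so the stretches given here lie inside the genes as GENCODE draws them. They are shown because Vim rose after resection and Acta2 did not pass the test. Each line holds 30 bases, 5′ to 3′. Capitals in Acta2 (minus strand) mark matches to the CArG box, the binding motif of serum response factor, with at most 1 core base replaced, and capitals in Vim (plus strand) mark the TATAAA letters of a TATA box motif.
Acta2, chr19:34255438-34255467: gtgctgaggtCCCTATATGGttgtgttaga
Acta2, chr19:34255388-34255417: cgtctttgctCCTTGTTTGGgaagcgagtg
Vim, chr2:13574267-13574296: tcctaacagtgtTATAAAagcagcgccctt
The matches start 84 and 34 bases before the RefSeq first base of Acta2, and such matches on either strand occur in 8.59% of 32851 mouse promoter windows of 250 bases. The strict CArG box, present in 1.47% of windows, was in 0 of the 5 member windows, and the relaxed one was in none of the other 4. TATAAA starts 32 bases before the RefSeq first base of Vim and occurs on either strand in 12.4% of windows. A match describes letters in the window and is not a measurement of binding.

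After resection with vehicle, 8 of the 9 markers rose in the liver, and the proteoglycan lumican and vimentin rose most, 4.22-fold and 2.95-fold. Decorin rose 2.13-fold and desmin 1.79-fold. Reelin, Rgs5, Thy1 and transgelin rose between 1.27-fold and 1.57-fold. Acta2 stood apart, with a mean difference of -0.00 on the log2 scale and a 95% interval of -0.64 to 0.64. Values are log2 TPM, the log2 of a gene's share of the transcripts in a library after correction for transcript length, with a pseudocount that appears from the values to be 1. The authors' batch correction shifted these levels, so they are not exact shares. A fold is 2 to the power of a difference on this scale, so it understates the change of low genes such as Lum, Thy1 and Tagln. Values were tested with limma across 15901 genes and called at a Benjamini-Hochberg adjusted p under 0.05. Over all genes tested, 41.9% were called, 37.4% higher and 4.47% lower, so 8 of 9 is to be read against a high background. The median difference of the members was 0.65, against 0.25 over all genes.

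In bulk tissue, more cells of a type and more RNA per cell cannot be told apart. The median over all genes was above 0 on the TPM scale, so the same test was also run with each library centred on its median. The calls over all genes then changed from 5953 higher and 710 lower to 3245 higher and 4580 lower. After centring, 6 members remained called: Lum (1.77), Vim (1.25), Dcn (0.78), Des (0.53), Reln (0.35) and Rgs5 (0.31). Thy1 (0.15, adjusted p = 0.273) and Tagln (0.04, adjusted p = 0.802) did not pass, and Acta2 was at -0.31 (adjusted p = 0.350).

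**Figure D1:**
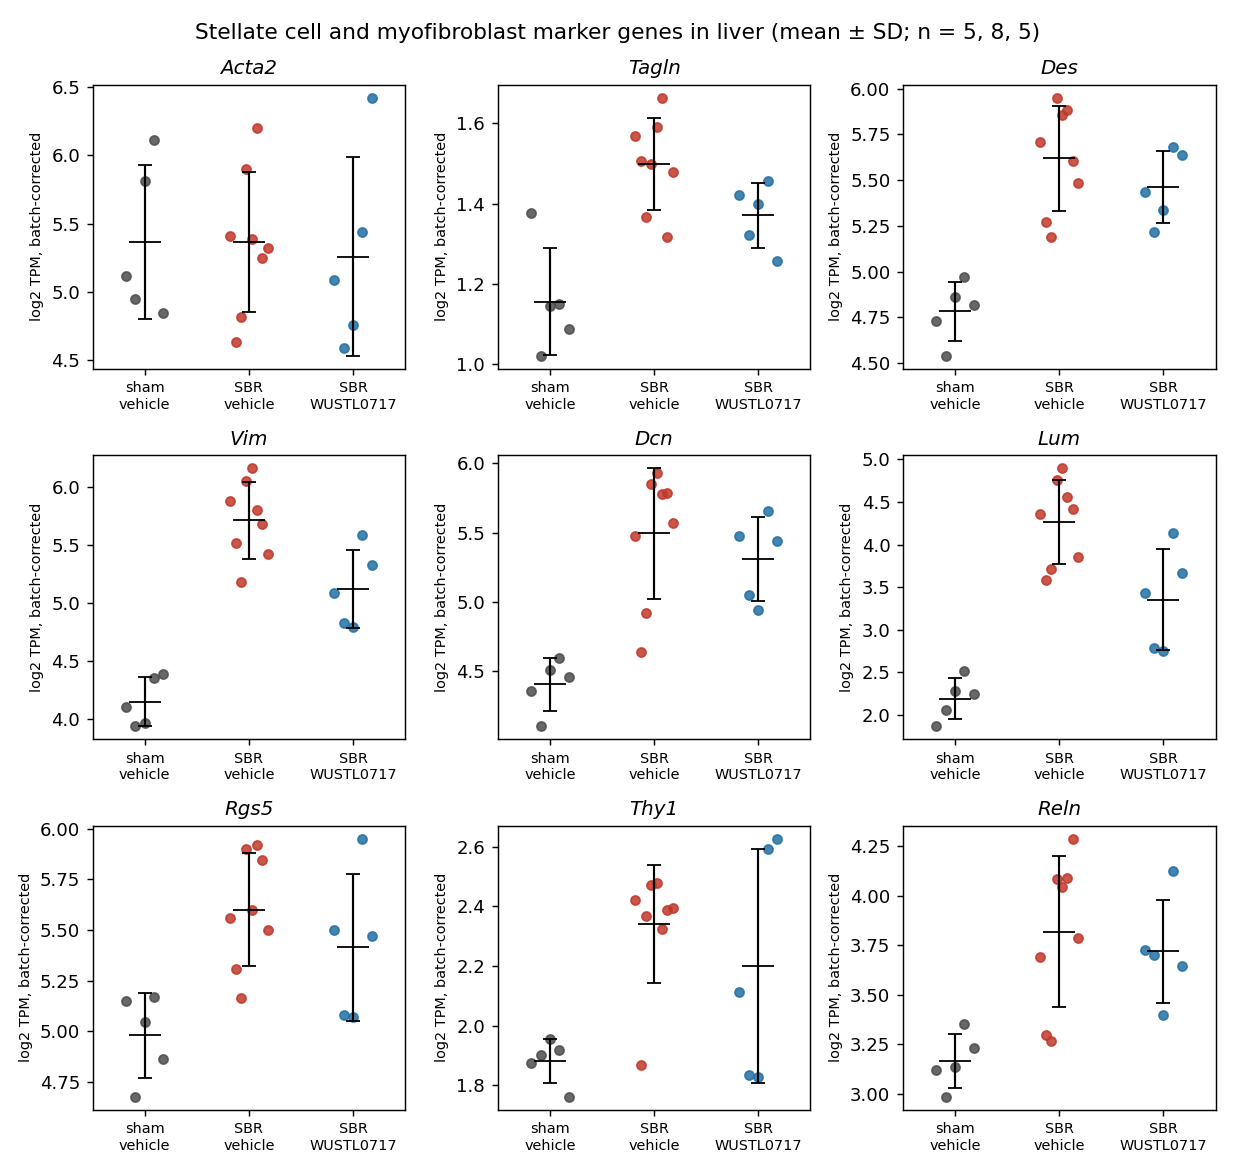
Log2 TPM of the 9 markers in each liver library (points), with the mean and SD of sham vehicle (n = 5), SBR vehicle (n = 8) and SBR WUSTL0717 (n = 5). Lum and Vim in the SBR vehicle livers lie above every sham liver, while the 3 groups of Acta2 overlap fully.

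Lumican was at 1.87, 2.05, 2.28, 2.51 and 2.25 log2 TPM in the 5 sham livers and between 3.59 and 4.90, with a median of 4.39, in the 8 SBR vehicle livers. Every resected liver was above every sham liver. The difference was 2.08 on the log2 scale (SE 0.25, 95% interval 1.56 to 2.59, adjusted p = 2.48e-06).

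Vimentin read 4.10, 3.93, 3.97, 4.35 and 4.39 log2 TPM in the sham livers and 5.18 to 6.16, with a median of 5.73, in the SBR vehicle livers. The groups did not overlap, and the gap between the highest sham and the lowest resected liver exceeded the SD of either group (0.21 and 0.33). The difference was 1.56 (SE 0.16, adjusted p = 6.24e-07).

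Decorin, the neighbour of Lum, was at 4.36, 4.10, 4.51, 4.59 and 4.46 log2 TPM in the sham livers and ranged from 4.64 to 5.93 around a median of 5.67 after resection. The groups did not overlap, although the lowest resected liver was close to the highest sham liver. The difference was 1.09 (SE 0.20, adjusted p = 0.000209). Desmin was at 4.73, 4.54, 4.86, 4.97 and 4.81 log2 TPM in the sham livers and at 5.19 to 5.95, median 5.66, in the SBR vehicle livers. These groups did not overlap either, and the difference was 0.84 (SE 0.13, adjusted p = 4.89e-05). Over all genes, 15.6% had every SBR vehicle liver above every sham liver, against 4 of the 9 markers.

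The identity markers rose less, and their groups overlapped. Reelin was at 3.16 ± 0.14 log2 TPM (SD, n = 5) in sham livers and at 3.82 ± 0.38 (SD, n = 8) after resection, a difference of 0.65 (SE 0.16, adjusted p = 0.00355). Rgs5 was at 4.98 ± 0.21 and 5.60 ± 0.28, a difference of 0.62 (SE 0.16, adjusted p = 0.00367). Thy1 was at 1.88 ± 0.07 and 2.34 ± 0.20, a difference of 0.46 (SE 0.14, adjusted p = 0.0133), and the lowest of its 8 resected livers, replicate 2 at 1.87, lay far from the rest. Transgelin was at 1.16 ± 0.13 and 1.50 ± 0.11, a difference of 0.34 (SE 0.08, adjusted p = 0.00323).

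Acta2 was at 5.12, 4.95, 5.81, 6.11 and 4.85 log2 TPM in the sham livers, at 4.63 to 6.20 with a median of 5.35 in the SBR vehicle livers, and at 5.09, 4.59, 4.75, 5.44 and 6.42 in the treated livers. High and low livers occurred in all 3 groups, and the SDs of 0.56, 0.51 and 0.73 were the largest of any marker in each group. The adjusted p of 0.996 does not show that the level was the same: the interval allows a fall or a rise of up to 0.64 on the log2 scale.

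The exact two-sided permutation test over the 13 livers gave p = 0.000777, the smallest it can give, for Lum, Vim and Des. It gave 0.00233 for Dcn and Tagln, 0.00389 for Rgs5 and Thy1, 0.00777 for Reln and 0.994 for Acta2. SBR vehicle replicates 2 and 3 had the lowest library medians of their group, 3.13 and 3.32 log2 TPM against 3.53 to 3.77 in the other 6, and ranked lowest over the members. Without both, 8 members were still called and Acta2 was at 0.21 (adjusted p = 0.568).

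**Figure D2:**
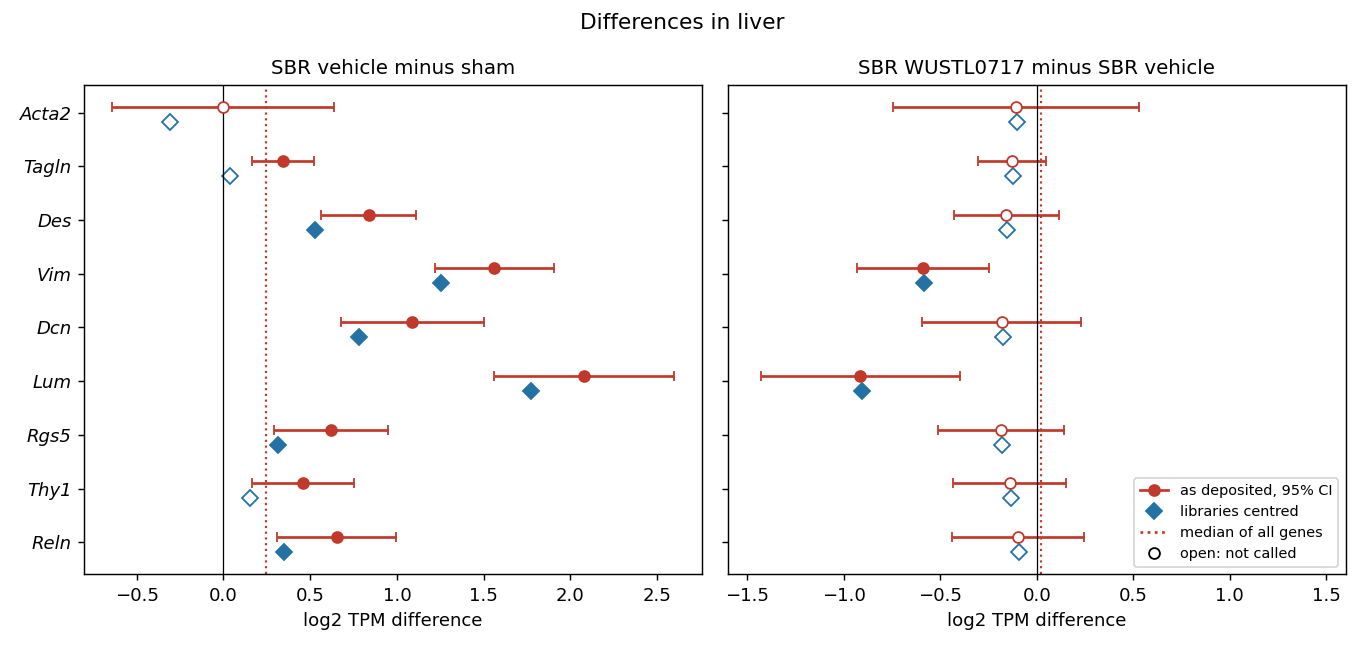
Log2 difference of each marker in liver, SBR vehicle minus sham vehicle and SBR WUSTL0717 minus SBR vehicle. Circles with bars are the deposited values with 95% intervals, diamonds are values after centring each library on its median, open symbols did not pass the test and the dotted line is the median of all genes (0.25 and 0.02). Lumican lies furthest from 0 in both panels, which share the SBR vehicle livers.

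With WUSTL0717, lumican and vimentin fell by 0.91 and 0.59 on the log2 scale in the resected liver, and the other 7 markers did not pass the test. These 2 of 9 stand against 2.66% of all genes called lower and 4.1% called in either direction. Lumican in the treated livers was at 3.43, 2.79, 2.75, 4.14 and 3.66 log2 TPM, and 3 of the 5 lay below all 8 vehicle livers (lowest 3.59). The difference was -0.91 (SE 0.25, 95% interval -1.43 to -0.40, adjusted p = 0.0429, exact two-sided permutation p = 0.0140). Vimentin was at 5.08, 4.82, 4.79, 5.58 and 5.33 log2 TPM, and again 3 of 5 lay below the lowest vehicle liver, 5.18. Its difference was -0.59 (SE 0.16, 95% interval -0.93 to -0.25, adjusted p = 0.0484, exact permutation p = 0.0124).

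Both calls were close to the threshold. Neither passed when SBR vehicle replicate 1, 4, 5, 6 or 7 or WUSTL0717 replicate 1, 2, 3 or 5 was left out, with adjusted p of up to 0.164 for Lum and 0.174 for Vim. Both passed after centring (adjusted p = 0.00267 for Lum and 0.00315 for Vim). Desmin (Des) passed in 1 alternative, quantile scaling (-0.23, adjusted p = 0.0445).

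The remaining markers were at -0.10 to -0.19 against vehicle, all 7 below 0, where 54.7% of all genes were above 0 and their median was 0.02. Desmin was at 5.43, 5.22, 5.34, 5.68 and 5.64 log2 TPM in the treated livers, within the range of the vehicle livers, and its interval was -0.43 to 0.12. Decorin was at 5.47, 5.05, 4.94, 5.66 and 5.44 log2 TPM, also within the vehicle range, with an interval of -0.59 to 0.23. Acta2 was at -0.11 (interval -0.75 to 0.53), Rgs5 at -0.19, Thy1 at -0.14, Tagln at -0.13 and Reln at -0.10. All 9 markers overlapped between the groups, and over all genes 0.308% had every treated liver below every vehicle liver.

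Against sham, the treated resected livers were still higher in 5 of the 9 markers, where 27.9% of all genes were called higher and 28.8% in either direction. Lumican was higher by 1.16 (SE 0.27, adjusted p = 0.00551), vimentin by 0.97 (SE 0.18, adjusted p = 0.00109), decorin by 0.91 (SE 0.22, adjusted p = 0.00609), desmin by 0.68 (SE 0.14, adjusted p = 0.00288) and reelin by 0.55 (SE 0.18, adjusted p = 0.0299). In these 5 genes every treated liver was above every sham liver, which held for 27.4% of all genes, and the exact permutation p was 0.00794, the smallest possible with 5 against 5. Rgs5 (0.43, adjusted p = 0.065), Tagln (0.21, adjusted p = 0.0875), Thy1 (0.32, adjusted p = 0.121) and Acta2 (-0.11, adjusted p = 0.815) did not pass. After centring 4 were called, because reelin (Reln) was lost (0.25, adjusted p = 0.0878). Reelin was also lost without sham replicate 1 or 2 or WUSTL0717 replicate 1 or 4 (adjusted p of up to 0.0983). After centring the calls over all genes changed from 4436 higher and 144 lower to 1700 and 1420. Each pair of these liver comparisons shares a group. The 8 SBR vehicle livers enter the resection and the WUSTL0717 comparisons with opposite sign, so a chance high value in them would both raise the first difference and lower the second.

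Differences between a pair of markers inside 1 library depend less on the scaling of that library, although the pseudocount keeps a library factor from cancelling for low genes such as Lum and Tagln. The pairs were formed by shared role after the values had been seen, so they are given as a description with no test. Vim and Lum had each changed more than their partners, so a shift of these 2 pairs follows from that. The share of other gene pairs that separate in this way was not computed. Vim minus Des lay between -0.90 and -0.43 in sham livers, between -0.09 and 0.30 in SBR vehicle livers and between -0.55 and -0.10 in treated livers. Thus every resected vehicle liver was above every sham liver in this pair, and all 5 treated livers were below all 8 vehicle livers, the nearest by a small margin.

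Lum minus Dcn lay between -2.49 and -2.05 in sham livers, between -1.71 and -1.03 in SBR vehicle livers and between -2.26 and -1.51 in treated livers. The mean rose by 0.99 with resection, and 4 of 5 treated livers lay below all vehicle livers. With a pseudocount of 5 TPM the rise was 0.48, so its size depends on how low values are handled. Acta2 minus Tagln averaged 4.21 ± 0.57 in sham (SD, n = 5), 3.87 ± 0.46 in SBR vehicle (SD, n = 8) and 3.89 ± 0.77 in treated livers (SD, n = 5), and the groups overlapped.

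**Figure D3:**
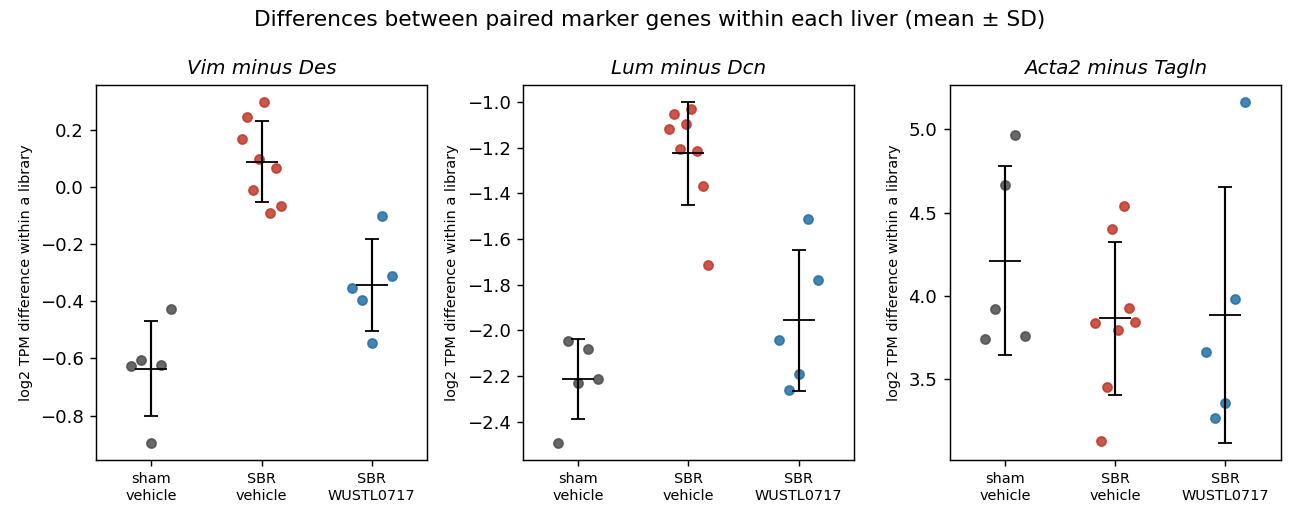
Log2 difference between paired markers in each liver library for Vim minus Des, Lum minus Dcn and Acta2 minus Tagln, by group (n = 5, 8 and 5). In the first panel the SBR vehicle livers (-0.09 to 0.30) lie above all others, the nearest treated liver by a small margin. The Acta2 pair overlaps in all groups.

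Related genes were counted in the same liver comparison of SBR vehicle with sham. Of 19 tested myofibroblast and matrix genes, 17 rose and 0 fell, with a median of 1.90, against 37.4% of all genes called higher and a median of 0.25. Collagens had the smallest p in the list: the fibrillar Col1a1 rose by 3.36 (SE 0.23, adjusted p = 1.04e-08), the type VI Col6a3 by 2.92 and the fibrillar Col3a1 by 2.75. Of the 12 portal fibroblast genes, 11 rose and 0 fell (median 1.46), among them elastin, Eln, by 2.42, the growth factor Gas6 by 1.54 and the ectonucleotidase Entpd2 by 1.40. Of 7 other small leucine-rich proteoglycans, 5 rose and 0 fell (median 1.02), with biglycan, Bgn, at 1.57, podocan, Podn, at 1.34 and Prelp at 1.02.

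The contractile list had a smaller median, and this difference between lists was not tested. Of 15 smooth muscle contractile genes, 3 rose and 0 fell, with a median of 0.19, where 37.4% of all genes were called higher. After centring 3 rose and 6 fell with a median of -0.12, to be read against the centred calls over all genes given above. The 3 were tropomyosin Tpm1 (1.26, adjusted p = 1.90e-06), smoothelin Smtn (1.00, adjusted p = 2.46e-06) and caldesmon Cald1 (0.58, adjusted p = 0.00113). Of 17 genes of the serum response factor pathway, which drives actin genes, 15 rose and 0 fell (median 0.99), including filamin Flna by 1.45, calponin Cnn2 by 0.99 and Ccn2 by 1.84; after centring 13 rose and 1 fell. Of 6 intermediate filament and cytolinker genes 4 rose, with the chaperone Cryab at 1.48, lamin Lmna at 1.05 and plectin Plec at 0.57.

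Of 14 genes listed for the quiescent stellate cell, 9 rose and 3 fell (median 0.63), and after centring 8 rose and 5 fell. Whether the listed genes mark that state alone was not tested. The PDGF receptor Pdgfrb rose by 1.84 and cytoglobin, Cygb, by 1.93. The 3 genes that fell, named after their values were seen, were Colec10 (-0.90, adjusted p = 0.000145), Angptl6 (-0.64) and Hhip (-0.61). Of 5 pericyte genes 4 rose (median 0.66), with the receptor Notch3 at 0.66, the adhesion molecule Mcam at 0.73 and the potassium channel subunit Abcc9 at 0.87. Of the 4 tested genes of the reelin pathway 3 rose (median 0.48): the adaptor Dab1 by 0.62, the adaptor Dab2 by 0.46 and the receptor Vldlr by 0.50. After centring 2 rose and 1 fell.

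With WUSTL0717 against vehicle, 12 of the 19 myofibroblast and matrix genes fell and 0 rose (16 after centring), where 2.66% of all genes were called lower. Over all genes the calls were 229 higher and 423 lower as deposited and 1830 higher and 1303 lower, of 15901, after centring, and the centred counts of the lists are to be read against the latter. The median of the list was -0.74, against 0.02 over all genes. Col1a1 changed by -1.47 (adjusted p = 0.00401), the crosslinking enzyme gene Loxl1 by -1.06 and Col3a1 by -1.14. In the portal fibroblast list 5 of 12 fell and 0 rose (10 fell after centring), led by Eln at -1.23, Cd34 at -0.72 and the matrix protein fibulin, Fbln2, at -0.59. Of the quiescent stellate cell genes 2 rose and 2 fell (5 and 5 after centring): Colec10, a secreted lectin, was higher by 0.88, and Cygb and Pdgfrb changed by -0.76 and -0.64. Against sham, 17 of the 19 myofibroblast and matrix genes and 10 of the 12 portal fibroblast genes were still called higher in the treated livers and 0 lower (16 higher and 1 lower, and 6 higher and 0 lower, after centring). Of all genes 27.9% were called higher in that comparison, and its centred calls over all genes are given above.

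By limma, 0 genes were called with the compound in the contractile list, in the pericyte list, among the other small leucine-rich proteoglycans, in the intermediate filament list and in the reelin pathway, where 2, 0, 3, 3 and 2 had an unadjusted p under 0.05 and centring called 2, 0, 3, 2 and 2 lower. In the serum response factor list 1 gene fell, Fhl2 (-0.93, adjusted p = 0.0303), and 5 fell after centring.

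Markers of other cell types moved with these results, and their part in them was not tested. All 8 cholangiocyte genes rose after resection (median 1.98), with keratin Krt19 at 2.14 and Epcam at 2.68. With WUSTL0717 5 of the 8 fell and 0 rose (median -0.90, 7 lower after centring), where 2.66% of all genes were called lower. Against sham all 8 were called higher (7 after centring), where 27.9% of all genes were. Their summed level was 81.4 to 185 TPM in sham, 382 to 735 in SBR vehicle and 210 to 488 in treated livers. Such sums use values after the batch correction, so they are compared within a tissue only and are not true transcript shares. The 9 hepatocyte genes summed to 3150 to 4242, 1819 to 3517 and 3245 to 4307 TPM in the same order, and 0 rose and 3 fell after resection (9 after centring). With WUSTL0717 against vehicle all 9 lay above 0 (median 0.29), with 0 called by limma, 5 at an unadjusted p under 0.05 and 5 called higher after centring. T and NK cell genes, which bear on Thy1, summed to at most 15.8 TPM in sham, to 17.6 to 23.8 TPM in SBR vehicle and to 15.3 to 24.3 TPM in treated livers, with 4 of 7 called higher (0 higher and 1 lower after centring). The list of lymphatic endothelium, which itself holds Reln, had 3 of 5 called higher (2 after centring) and summed to 28.7 to 41.5, 38.4 to 59.4 and 43.5 to 59.9 TPM. The 9 markers summed to 121 to 194, 189 to 349 and 173 to 290 TPM.

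Of the liver endothelium 1 of 10 genes rose (1 rose and 5 fell after centring) and of the macrophage list 2 of 9 rose and 1 fell (2 and 4 after centring), with sums of 107 to 132, 90.7 to 172 and 151 to 172 TPM and of 91.1 to 123, 85.9 to 202 and 147 to 183 TPM. B cell, pancreas and mesothelium lists had 0 calls by limma in 4, 6 and 1 tested genes (0 in each at an unadjusted p under 0.05, and 1, 0 and 1 lower after centring), and the erythroid list had 1 of 4 lower. Of the enteric list 2 of 4 rose (1 after centring), and of the intestinal epithelium list, which shares Epcam with the cholangiocytes, 4 of 8 rose (2 rose and 3 fell after centring). With WUSTL0717 against vehicle 1 macrophage gene was called higher (4 after centring), and of the liver endothelium 0 were called by limma, 1 at an unadjusted p under 0.05 and 4 higher after centring. SBR vehicle replicate 7 held pancreatic transcripts at a summed 3321 TPM, against 17.4 to 21.6 in the other 17 livers, and replicate 1 held the most erythroid transcripts (473 TPM). Without either replicate, 8 members were called after resection, as with all livers, and 0 with the compound.

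Over the 18 livers, the genes whose pattern was most like each marker were found by Pearson's r among tested genes. This is a description without a p-value, since all points share the groups, the batch and the scaling. Acta2 was most like Tmem252 (r = 0.917), Fam83e (0.913) and the smooth muscle myosin Myh11 (0.902). After centring the leading genes were Myh11 (0.851) and the enteric smooth muscle actin Actg2 (0.818). Neither passed the test after resection by limma on the deposited values, with Myh11 at -0.22 and Actg2 at -0.34. After centring, 6 of the 15 genes of the contractile list, which holds both, were called lower. Over all livers Acta2 was related to the other markers at r = 0.09 (Tagln) to 0.52 (Thy1). With the group means removed, r was 0.15 for Tagln, 0.50 for Reln, 0.54 for Vim and 0.67 for Dcn and Rgs5. It was 0.69 for Lum, 0.70 for Thy1 and 0.80 for Des. Thus within groups the deposited Acta2 values were higher in livers where most of the other markers were. These r were not computed after centring, and the part of library scaling in them was not tested.

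Lumican was most like Pdgfra (r = 0.989 and 0.983 after centring), the PDGF receptor of fibroblasts, and vimentin was most like Col6a1 (0.995 and 0.991). Both were also close to each other (r = 0.98). Decorin and desmin were related at 0.96, and the genes most like them were Gnb1 (0.984) and Pip4k2a (0.988). After centring decorin was nearest to the endothelial gene Cd93 (0.945) and to Abcc9 (0.943). Reelin was nearest to Idua (0.978) and Abcc9 (0.976, and first after centring at 0.926), Thy1 to Slc3a2 (0.919) and Tagln to Hmgb2 (0.900). Rgs5 was nearest to Pusl1 (0.970), but after centring the leaders were the cell division genes Gtse1 (0.893), Cdkn3 (0.887) and Ckap2l (0.869). The first-ranked genes of Lum, Vim and Des (Pip4k2a, 0.965 after centring) were the same under both scalings, and those of the other 6 markers were not.

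**Figure D4:**
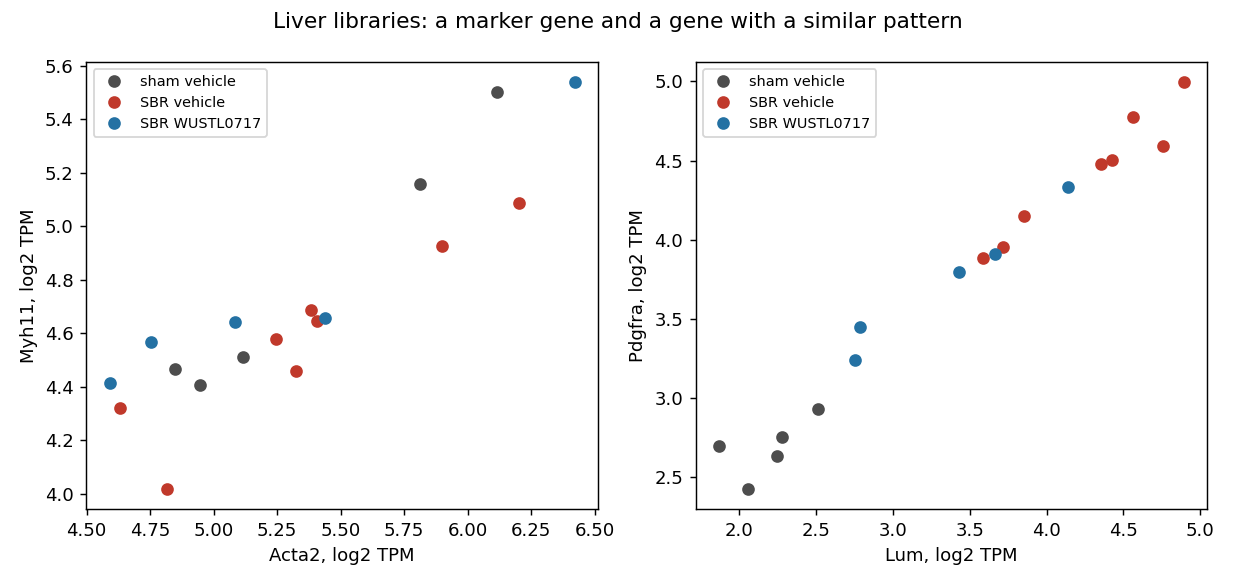
Log2 TPM of Acta2 against Myh11 and of Lum against Pdgfra over the 18 liver libraries, coloured by group. Points of the 3 groups mix along the Acta2 line (r = 0.902), while along the Lum line (r = 0.989) the sham livers lie lowest.

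In the intestine no marker passed the test in either comparison. The intestinal libraries were 1 batch and the liver libraries the other in the authors' correction, so levels are not compared between tissues. In the duodenum 8 markers were tested, since Tagln did not reach a mean of 1 log2 TPM. After resection they were at -1.13 to -0.27, all 8 below 0, where 30% of all genes were above 0 and their median was -0.36. By limma 0 of 8 were called, as were 0% of all genes, while 1 marker and 2426 of 15093 genes had an unadjusted p under 0.05; the unmoderated test also called 0 members. In the ileum all 9 were tested and were at -0.09 to 0.59 after resection, with 0 called, 0 under an unadjusted p of 0.05 and 0 by the unmoderated test, against 0.349% of all genes called. Lum was at 0.59 in the ileum (adjusted p = 0.787) and Vim at 0.04.

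Decorin had the largest intestinal differences. In the duodenum it was at 3.71, 3.99 and 2.74 log2 TPM in sham, at 3.18, 2.30, 2.04 and 1.88 in SBR vehicle and at 3.75, 3.71, 3.95 and 3.36 in SBR WUSTL0717 mice. The sham and vehicle groups overlapped, with 3 of 4 vehicle values below every sham value, and all 4 treated values lay above the vehicle values. Resection gave -1.13 (SE 0.42, adjusted p = 0.276, exact permutation p = 0.0857) and WUSTL0717 gave 1.34 (SE 0.39, adjusted p = 0.361). With libraries weighted by their spread the resection difference was -1.60 (adjusted p = 0.0242). The exact permutation p for WUSTL0717 was 0.0286, the smallest that 4 against 4 can give. Over all genes 2.11% had every treated duodenum above every vehicle duodenum.

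Reelin in the duodenum went the other way with the compound. It was at 2.22, 1.80, 2.05 and 2.01 log2 TPM with vehicle and at 1.72, 1.73, 1.30 and 1.40 with WUSTL0717, and every treated value lay below every vehicle value, as for 1.05% of all genes. The difference was -0.48 (adjusted p = 1, exact permutation p = 0.0286). With WUSTL0717 limma called 0 of 8 members in the duodenum (0.258% of all genes called, 1 member at an unadjusted p under 0.05) and 0 of 9 in the ileum (0.0697% of all genes, 0 members unadjusted), and the unmoderated test called 0 in both. The ileal differences were -0.22 to 0.28.

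Smooth muscle and pancreatic transcripts varied between intestinal libraries, and their part in these values was not tested. In the duodenum the 6 pancreas genes summed to 1300, 579 and 85.7 TPM in sham, to 17.3, 858, 96.2 and 109 in SBR vehicle and to 719, 456, 165 and 1524 in SBR WUSTL0717 mice. Their median difference was -1.71 after resection and 2.16 with WUSTL0717, the same directions as decorin. Within groups the order differed: sham replicate 3 was lowest of its group in both, while SBR vehicle replicate 1 had the highest decorin and the lowest pancreas sum, and in the treated group replicate 4 had the lowest decorin and the highest sum. The summed contractile list was at 257, 56.8, 76.0 and 156 TPM in the SBR vehicle duodena, whose replicate 1 was highest in 9 of 9 markers and replicate 2 lowest in 8. In the ileum it was at 215, 227 and 709 TPM in sham, and SBR vehicle replicate 1 and WUSTL0717 replicate 2, with 658 and 856 TPM, were highest in their groups in 8 markers each.

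The resection effect was then compared between tissues as a difference of effects. For liver minus duodenum it was 2.68 for Lum (SE 0.47, adjusted p = 0.000155), 2.22 for Dcn (adjusted p = 0.000259) and 2.17 for Vim (adjusted p = 0.000148). These 3 also passed when each tissue kept its own spread (adjusted p = 0.00199, 0.00673 and 0.00709) and after centring. Rgs5 (1.56), Des (1.47) and Reln (0.92) passed only with the spread pooled over tissues (adjusted p = 0.0373, 0.0334 and 0.0182) and had adjusted p of 0.150, 0.148 and 0.0632 with their own. Thus 6 of 8 members were called with the pooled spread, against 31.7% of all genes, and 3 with own spreads, against 11%. The median of all genes was 0.64.

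For liver minus ileum the difference was 1.52 for Vim (SE 0.34, adjusted p = 0.0033 pooled and 0.0274 with own spreads) and 1.49 for Lum (adjusted p = 0.026 and 0.0572). Hence 2 of 9 were called pooled, against 10.7% of all genes, and 1 with own spreads, against 4.45%. For Acta2 the difference was 0.66 (interval -0.55 to 1.86) from duodenum and -0.46 (interval -1.62 to 0.70) from ileum, and it did not pass.

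The effect of WUSTL0717 differed between liver and duodenum for Dcn, by -1.52 with the pooled spread (adjusted p = 0.0444, 1 of 8 members against 1.16% of all genes), but not with own spreads (adjusted p = 0.249, 0 members against 0.352%). Between liver and ileum limma called 0 of 9 members pooled and 0 with own spreads, against 0.636% and 0.134% of all genes, with 1 member at an unadjusted p under 0.05. For Lum that difference was -0.81 (interval -1.66 to 0.04) and for Vim -0.81 (interval -1.47 to -0.16, adjusted p = 0.268). The fall of lumican and vimentin in the treated liver was therefore not shown to differ from the ileum.

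**Figure D5:**
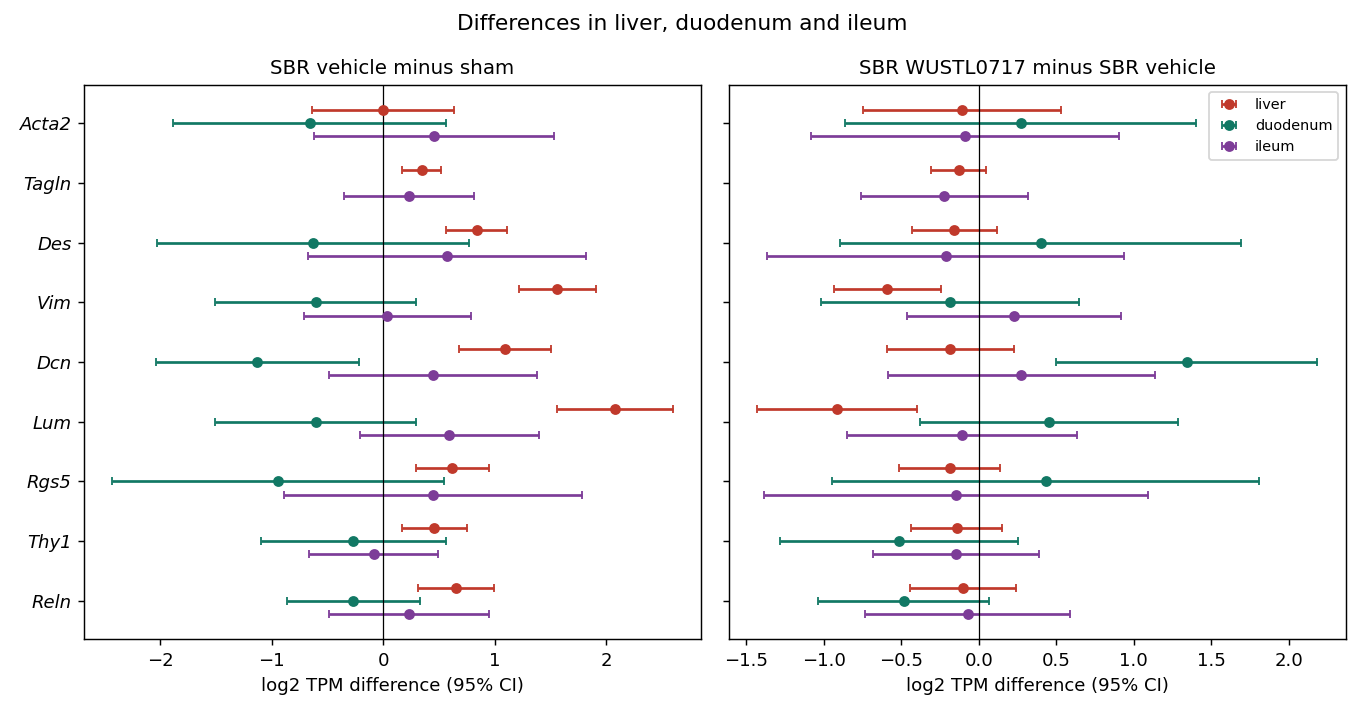
Log2 differences with 95% intervals (limma) of each marker in liver, duodenum and ileum, for SBR vehicle minus sham and for SBR WUSTL0717 minus SBR vehicle. After resection Lum, Vim and Dcn lie above 0 in liver (2.08, 1.56 and 1.09), intestinal intervals are wider, and Tagln has no duodenal point.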

How the data were processed

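RNA of liver, duodenum and ileum was sequenced after ribosomal RNA depletion. Per the study's methods and the labels, the authors used STAR for alignment to GRCm38, featureCounts for gene counts, and edgeR and TPM for scaling. After log2, ComBat was applied with the intestine as 1 batch and the liver as the other. The deposited values are log2 TPM after that correction; 2752 values lie below 0, and the correction can stretch or shrink a gene's differences. No read totals were used, so the depth is unknown and low values are less certain.

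The members and gene lists were chosen with earlier results of these data known. The main test was limma 3.58.1 in R 4.3.3, with a trended variance and all 3 groups of a tissue in 1 model, for genes averaging 1 log2 TPM or more there. P-values were adjusted by Benjamini-Hochberg over all genes, and 0.05 was the threshold. Single markers were also compared with exact two-sided permutation tests (scipy 1.17.1). Effects were compared between tissues as a contrast of contrasts in 1 fit; since the intestinal spread was larger than the liver's and the pooled fit overcalled on simulated data, a fit with each tissue's own spread was added after the data were seen. Summed levels are values after ComBat turned back to TPM, so they are not true shares of a library's transcripts. The hepatocyte genes, for example, summed to 2114 to 2379 in sham ileum. Named genes were all members, up to 3 genes of each related list with the smallest p in each liver comparison, defining markers of other cell types and the 3 genes most like each member. For 1 related list, 1 gene that the rule names is not reported here. Alternatives were median centring, quantile scaling, pseudocounts, filters, library weights, an unmoderated test, fewer groups, a replicate block and leaving out each library. Promoters are from RefSeq (GRCm38.p6). Replicates are separate libraries per the labels. Whether tissues came from the same mice was not given in the sources used here.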

Additional observations from a re-analysis of the deposited data

Results flagged for a closer look

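Of 63 member and group combinations checked, 3 had a library far from the rest of its group, where chance flags about 1 in 20. Thy1 in liver SBR vehicle replicate 2, the lowest of 8, was at 1.87 log2 TPM. Thy1 in ileum SBR WUSTL0717 replicate 3, the highest of 4, was at 2.67. Tagln in ileum SBR vehicle replicate 3, the lowest of 4, was at 1.64.

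The resection effect differed between liver and duodenum, by limma with the spread pooled over tissues, for Lum (2.68), Dcn (2.22), Vim (2.17), Rgs5 (1.56), Des (1.47) and Reln (0.92), and between liver and ileum for Vim (1.52) and Lum (1.49). The effect of WUSTL0717 differed between liver and duodenum for Dcn (-1.52). With each tissue's own spread, Lum, Dcn and Vim against duodenum and Vim against ileum remained.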

How the results depend on the processing

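After resection, 6 to 8 liver members were called in every alternative, and 8 without any single library. The compound's 2 liver calls were 0 with the unmoderated test and with the compared groups alone, 1 with no filter, a pseudocount of 0.1 or no variance trend, 3 with quantile scaling, which added Des, and 0 to 2 without single libraries. For treated against sham livers, 4 to 7 members were called in the alternatives and 4 to 6 without single libraries. In the duodenum library weights called 1 member after resection. For liver minus duodenum the resection calls were 3 after centring, quantile scaling or with own spreads and 4 to 7 without single libraries; those of WUSTL0717 were 0 with a pseudocount of 5, the replicate block or own spreads, 2 after centring or quantile scaling and 0 to 2 without single libraries. For liver minus ileum after resection they were 1 with a pseudocount of 5, library weights, the block or own spreads and 1 to 2 without single libraries.

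Directions turned for values near 0. Acta2 against sham was at 0.20 with library weights, 0.21 without the 2 livers of low median and -0.13 to 0.18 without single libraries. Acta2 with WUSTL0717 was at 0.0019 with weights, 0.029 with the block and -0.40 to 0.060 without single libraries, and treated against sham at 0.20 with weights and -0.40 to 0.078 without single libraries. Reln with WUSTL0717 was at 0.043 with the block. Tagln in treated against sham livers was at -0.086 centred and -0.029 with quantile scaling. Duodenal Reln after resection was at 0.14 with either, and ileal Vim at -0.038 and -0.069, and at -0.10 to 0.22 without single libraries. The causes were not tested.

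Within a tissue, with group means removed, 2 of 15 same-numbered pairs of libraries from different groups correlated above 0.1 in liver, 3 of 10 in duodenum and 1 of 10 in ileum. Their median r was -0.005, -0.014 and -0.035, against -0.002, -0.033 and 0.009 for other pairs. This check cannot show whether tissues came from the same mice, and the comparison of effects between tissues treated all libraries as independent. With the replicate block 8, 2 and 6 liver members were called for resection, for the compound and for treated against sham, and calls over all genes changed from 6663 to 5587, from 652 to 485 and from 4580 to 6075. Depth is unknown, so low Tagln and Thy1 values are the least certain.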
